A study of Mus musculus with 6 samples.

Results

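RNA levels of 10 genes that make, process, bind or transmit the Nodal signal were compared in mouse embryos grown for 8 hours in narrow or wide cavities. Protein and signalling activity were not measured. The genes were the ligands Nodal and Gdf3, the co-receptors Tdgf1 and Cfc1, the convertases Furin and Pcsk6, the receptors Acvr1b, Acvr2a and Acvr2b, and Foxh1, a transcription factor that none of these role names covers. They were taken by symbol from array features that name a single gene, so all 10 of 10 were measured, by 1 feature each, out of 19938 genes measured. One group of embryos was kept in narrow cavities of 90 µm diameter and the other in wide cavities of 180 µm. Both groups were whole embryos of CD1, an outbred mouse stock, collected at embryonic day 5.0, and no genetic change or drug was named for either. Each group had 3 samples, each a pool of 30 embryos, named here narrow 1 to 3 and wide 1 to 3. RNA of all tissues was therefore measured together on an Affymetrix Mouse Gene array, and the spread between samples is that between pools and not between embryos. The design text asks how embryos differ with and without outside mechanical cues, and leaves unsaid which cavity supplies the cue.

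Nodal is a secreted ligand of the TGF-beta family that keeps the early epiblast in its state and, soon after implantation, drives the visceral endoderm at the distal tip of the mouse embryo to become a signalling centre. It is made as a precursor that Furin and Pcsk6 cut, binds a complex of type I and type II activin receptors with the help of an EGF-CFC co-receptor on the cell surface, and acts through Smad2 and Smad3, which enter the nucleus and bind DNA with Foxh1. The pathway switches on its own ligand and its own secreted inhibitors, Lefty1, Lefty2 and Cer1. In the mouse, Furin and Pcsk6 are supplied by the extraembryonic ectoderm, which lies next to the epiblast.

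Because Foxh1 and the Smads also act on genes of the pathway itself, the members' promoter sequences were searched for the short elements these factors bind. RefSeq promoter windows, from 250 bases before to 50 bases after a gene's start on GRCm38.p6, were found for 8 of the 10 members, with 9 windows in all as Furin has a pair of starts. Printed here are the window of the ligand, and those of Tdgf1 and Acvr2a, the members with the lowest and the highest difference between cavities. Each is given 5′ to 3′ on the strand of the gene, and capitals mark CAGAC or its reverse complement GTCTG, a short element that Smad proteins can bind.
Nodal: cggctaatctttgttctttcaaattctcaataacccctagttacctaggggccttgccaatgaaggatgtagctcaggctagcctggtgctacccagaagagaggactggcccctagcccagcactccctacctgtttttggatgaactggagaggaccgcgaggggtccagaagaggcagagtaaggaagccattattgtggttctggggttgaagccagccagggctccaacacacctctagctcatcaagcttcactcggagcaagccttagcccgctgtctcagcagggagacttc
Tdgf1: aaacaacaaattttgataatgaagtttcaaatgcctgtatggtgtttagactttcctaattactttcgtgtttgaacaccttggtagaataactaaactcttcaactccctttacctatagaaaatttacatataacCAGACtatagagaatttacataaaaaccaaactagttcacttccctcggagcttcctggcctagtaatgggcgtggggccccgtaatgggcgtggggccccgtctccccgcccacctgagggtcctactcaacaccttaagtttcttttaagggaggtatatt
Acvr2a: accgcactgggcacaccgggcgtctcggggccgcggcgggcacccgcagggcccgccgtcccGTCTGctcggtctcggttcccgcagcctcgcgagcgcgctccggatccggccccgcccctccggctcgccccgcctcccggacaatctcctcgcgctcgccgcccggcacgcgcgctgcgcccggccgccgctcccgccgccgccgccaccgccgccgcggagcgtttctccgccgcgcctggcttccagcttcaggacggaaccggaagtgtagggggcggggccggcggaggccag
The Nodal window lies at chr10:61417722-61418021 on the plus strand, the Tdgf1 window at chr9:110946109-110946408 on the minus strand and the Acvr2a window at chr2:48813859-48814158 on the plus strand. Searched on both strands, CAGAC was present in 6 of the 9 member windows, beside 49.6% of all 32851 windows in the table. It was matched once in Tdgf1, 113 bases before the start, and once in Acvr2a, 188 bases before it, and had 0 matches in the Nodal window. The Foxh1 elements AATCCACA and AATACACA were found in 0 of the 9 windows and in 1.82% of all windows. These matches are letters in a window and were not measured as binding sites. With 9 windows, 0 cannot be told from a share of 1.82%. Sequence outside the windows was not searched, so sites elsewhere in or near these genes are not covered.

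The deposited values were log2 signals between 4.33 and 14.31, 1 per array feature and sample. Array medians lay between 7.62 and 7.67, and the lowest correlation between any pair of arrays, taken over genes, was 0.998. How the arrays had been made comparable before deposit was not given. A signal also depends on a gene's probes, so levels are compared between samples and not between genes. The labelled tissue was checked on markers: the mean log2 signal of 9 epiblast markers was 11.2 to 11.3 in narrow and 11.3 in all wide pools, that of 9 extraembryonic ectoderm markers 11.2 to 11.3 in narrow and 11.3 in wide pools, and that of 12 visceral endoderm markers 11.7 in narrow and 11.6 to 11.7 in wide pools. At an unadjusted limma p below 0.05, 0 of the epiblast, 2 of the extraembryonic ectoderm (both lower in narrow) and 1 of the visceral endoderm markers (higher) differed, and 5 of 12 markers of distal or anterior visceral endoderm were higher. Among 6 parietal endoderm, 3 trophoblast, 8 maternal decidua and 4 blood markers measured, 0 differed. Over all genes, 1.68% were higher and 1.72% lower at this level. Of the 12 distal or anterior markers, 4 had negative differences. The marker lists were drawn up with earlier results of these data known, so counts of markers are no independent evidence. The lower extraembryonic ectoderm markers were Esrrb and Bmp4. Bmp4 and the higher markers Cer1, Lefty1 and Lhx1 stand again in the pathway lists below, so they are not separate evidence there. In a fit with the replicate number of the titles as a block, 1 epiblast marker (Nanog, lower in narrow), 3 of extraembryonic ectoderm (lower), 2 of visceral endoderm (higher), 6 of distal or anterior visceral endoderm (higher) and 1 of parietal endoderm (Thbd, higher) had an unadjusted p below 0.05, beside 7.25% of all genes. Nanog and Foxa2, which this fit adds to the markers, are counted again with the block in the pathway lists. The decidual markers had a mean log2 signal of 7.56 to 7.598 in narrow and 7.573 to 7.594 in wide pools. In pools of whole embryos, fewer cells of a type and less RNA per cell cannot be told apart.

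None of the 10 genes passed the test in either direction between the cavities, and their differences lay between 0.940-fold for Tdgf1 and 1.07-fold for Acvr2a. The test was limma's moderated test, fitted over all 19938 genes with Benjamini-Hochberg adjustment, called at an adjusted p below 0.05, with differences taken as narrow minus wide. It called 0 of the 10 members and 0 of all genes, a background of 0%. At an unadjusted p below 0.05 there were 0 members as well, beside 3.40% of all genes. Narrow and wide pools overlapped for each of the 10 members, and did not overlap for 7.70% of all genes. With 10 members, a count of 0 cannot be told from shares of 3.40% or 7.70%. Of the 10 differences 6 were positive, as were 50.9% of those of all genes, and 4 negative, with a median of 0.0023 on the log2 scale, beside 0.0011 for all genes. The median size of a difference, without its sign, was 0.038 for the members and 0.035 for all genes. A test that calls nothing does not show that the levels were alike, so the 95% interval of each difference is given below as a range of folds, narrow over wide.

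**Figure D1:**
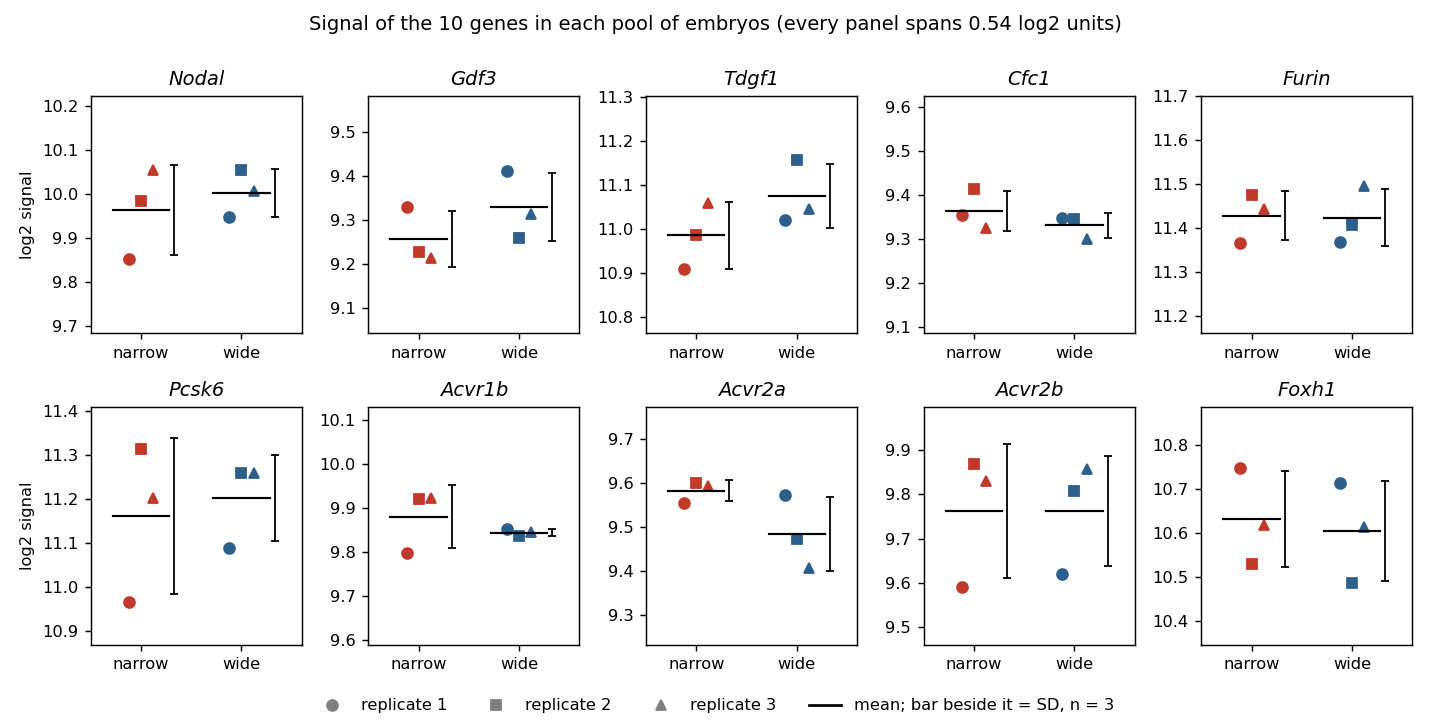
Log2 signal (vertical axis) of each of the 10 genes in the 3 narrow pools (left, red) and the 3 wide pools (right, blue). Symbols give the replicate number, lines the group mean and bars beside them the SD (n = 3). The groups overlap in every panel, and replicate 1 lies at the lower end in both groups for Pcsk6 and Acvr2b.

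Nodal itself had log2 signals of 9.85, 9.98 and 10.05 in narrow 1 to 3, against 9.95, 10.05 and 10.01 in wide 1 to 3. The highest narrow pool lay level with the highest wide pool, and narrow 1 was the lowest of all 6. The means were 9.96 ± 0.10 in narrow and 10.002 ± 0.054 in wide pools (SD, n = 3 each), a difference of -0.039 ± 0.060 (SE), or a 0.973-fold level with a 95% interval from 0.885 to 1.07-fold.

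Gdf3, a related ligand that in the mouse also signals through Cripto and activin receptors, had 9.33, 9.23 and 9.21 in narrow 1 to 3, against 9.41, 9.26 and 9.31 in wide 1 to 3. Each narrow pool was lower than the wide pool of the same number, but the highest narrow pool lay above the middle wide one. The means were 9.26 ± 0.064 in narrow and 9.33 ± 0.077 in wide pools (SD, n = 3 each). The difference was -0.072 ± 0.055 (SE), which is 0.951-fold with an interval from 0.871 to 1.04-fold.

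Of the EGF-CFC co-receptors, Tdgf1, which encodes Cripto and binds Nodal to its type I receptor, had the largest negative difference of the 10. It had 10.91, 10.99 and 11.06 in narrow 1 to 3, against 11.02, 11.16 and 11.04 in wide 1 to 3. Narrow 1 and narrow 2 lay below every wide pool and narrow 3 did not. The means of 10.98 ± 0.075 in narrow and 11.07 ± 0.072 in wide pools (SD, n = 3 each) gave a difference of -0.089 ± 0.056 (SE), a 0.940-fold level with an interval from 0.859 to 1.03-fold (limma adjusted p = 1.00).

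Cfc1, which encodes Cryptic, a relative of Cripto known for its part in left-right patterning, had 9.35, 9.41 and 9.32 in narrow 1 to 3, against 9.35, 9.35 and 9.30 in wide 1 to 3. The pools of both cavities were interleaved, and the 6 values spanned 0.11, the smallest range of the 10 genes. With means of 9.36 ± 0.045 in narrow and 9.33 ± 0.028 in wide pools (SD, n = 3 each), the difference was 0.032 ± 0.043 (SE), or 1.02-fold with an interval from 0.955 to 1.09-fold.

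The convertases cut the precursor of Nodal outside or at the surface of cells. Furin had 11.36, 11.47 and 11.44 in narrow 1 to 3, against 11.37, 11.41 and 11.50 in wide 1 to 3, with both the lowest narrow and the lowest wide pool being number 1. Its means were 11.43 ± 0.056 in narrow and 11.42 ± 0.066 in wide pools (SD, n = 3 each), and the difference was 0.0043 ± 0.051 (SE), 1.00-fold with an interval from 0.925 to 1.09-fold.

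Pcsk6, also called PACE4, varied most of the 10 between pools. It had 10.97, 11.31 and 11.20 in narrow 1 to 3, against 11.09, 11.26 and 11.26 in wide 1 to 3, so the narrow pools held both the lowest and the highest value. The means were 11.16 ± 0.18 in narrow and 11.20 ± 0.098 in wide pools (SD, n = 3 each). The difference of -0.042 ± 0.090 (SE) was less than the SD of either group and amounts to 0.972-fold, with an interval from 0.841 to 1.12-fold.

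Among the receptors, Acvr1b, the type I receptor kinase also known as ALK4, had 9.80, 9.92 and 9.92 in narrow 1 to 3, against 9.85, 9.84 and 9.85 in wide 1 to 3. The wide pools lay close together between narrow 1 and the other narrow pools. The means were 9.88 ± 0.072 in narrow and 9.85 ± 0.0087 in wide pools (SD, n = 3 each), and the difference was 0.036 ± 0.047 (SE), 1.03-fold with an interval from 0.951 to 1.11-fold.

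Acvr2a, a type II receptor that binds the ligand and activates the type I receptor, had the largest positive difference. It had 9.56, 9.60 and 9.60 in narrow 1 to 3, against 9.57, 9.47 and 9.41 in wide 1 to 3. Narrow 2 and narrow 3 lay above every wide pool, and narrow 1 lay just below wide 1. The means were 9.58 ± 0.024 in narrow and 9.49 ± 0.084 in wide pools (SD, n = 3 each), a difference of 0.098 ± 0.051 (SE) or 1.07-fold, with an interval from 0.987 to 1.16-fold (limma unadjusted p = 0.0907, adjusted p = 1.00). Without wide 1 the difference was 0.14 (limma unadjusted p = 0.0213), and over the 4 arrays numbered 2 and 3 it was 0.16 (limma unadjusted p = 0.0194), neither of them past the adjusted threshold. Without wide 3 it was 0.059, and the unadjusted limma p over the 14 alternatives ran from 0.0194 to 0.302. An unadjusted limma p below 0.05 was reached by 4.18% of all genes without wide 1 and by 4.58% with arrays numbered 2 and 3 only.

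Acvr2b, the other type II receptor of the group, had 9.59, 9.87 and 9.83 in narrow 1 to 3, against 9.62, 9.81 and 9.86 in wide 1 to 3. Both number 1 pools were low and the other pools of both cavities lay together. The means were 9.76 ± 0.15 in narrow and 9.76 ± 0.13 in wide pools (SD, n = 3 each), with a difference of 0.00018 ± 0.088 (SE), 1.00-fold and an interval from 0.869 to 1.15-fold.

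Foxh1, the forkhead partner of the activated Smads, had 10.75, 10.53 and 10.62 in narrow 1 to 3, against 10.71, 10.49 and 10.62 in wide 1 to 3. Each narrow pool lay slightly above the wide pool of its own number, by 0.0031 to 0.045, while the pools of 1 cavity spanned 0.22 in narrow and 0.23 in wide. The means were 10.63 ± 0.11 in narrow and 10.61 ± 0.11 in wide pools (SD, n = 3 each), and the difference was 0.028 ± 0.074 (SE), 1.02-fold with an interval from 0.906 to 1.15-fold.

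**Figure D2:**
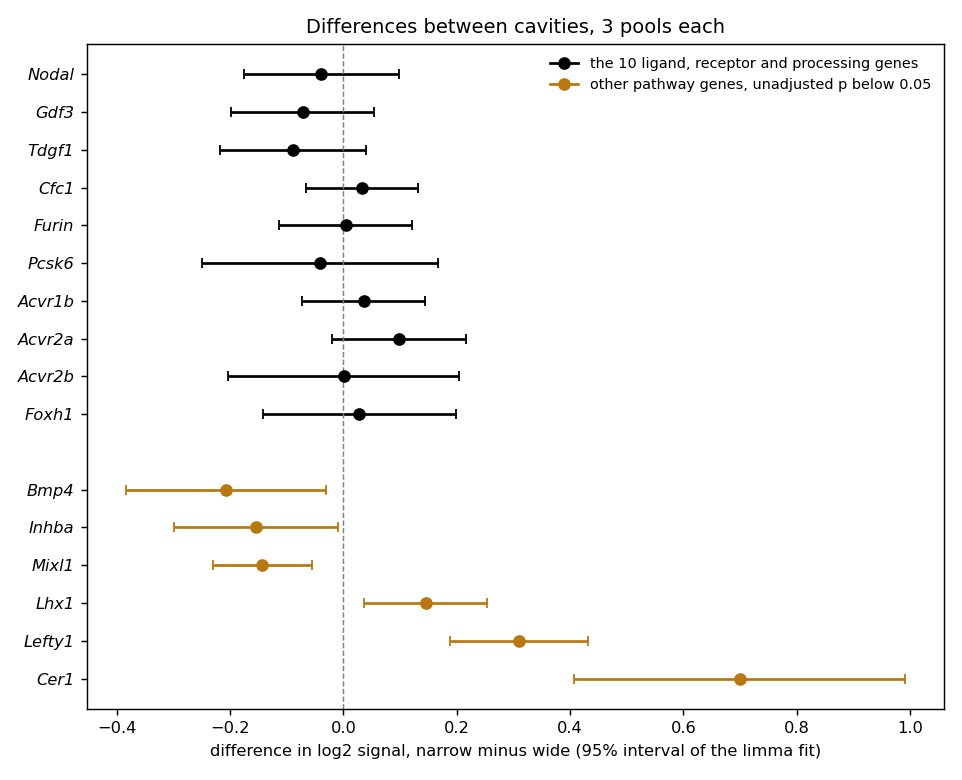
Difference in log2 signal, narrow minus wide (horizontal axis), with the 95% interval of the limma fit on 3 pools each, for the 10 genes (black) and for the 6 genes of the wider pathway lists at an unadjusted p below 0.05 (orange). All 10 black intervals include 0, with differences from -0.089 for Tdgf1 to 0.098 for Acvr2a. The orange genes were picked for a small p, so their intervals lie off 0 by choice, up to a difference of 0.70 for Cer1.

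The gap between the pools numbered 1 and the other pools was larger than that between the cavities for 8 of the 10 genes, the exceptions being Cfc1 and Acvr2a, and for 66.4% of all genes. In 7 of the 10 genes the pool numbered 1 lay at the same end of both groups, lowest in both for Nodal, Tdgf1, Furin, Pcsk6 and Acvr2b and highest in both for Gdf3 and Foxh1. The same held for 43.5% of all genes, 27.5% at the low and 16.0% at the high end, so it was not particular to this pathway. These shares were not worked out for arrays numbered 2 or 3, so they do not show that number 1 stood apart more than those. For Pcsk6, narrow 1 was lower than the mean of narrow 2 and 3 by a log2 difference of -0.29, and wide 1 lower than that of wide 2 and 3 by -0.17. For Acvr2b these gaps were -0.26 in narrow and -0.21 in wide pools. Foxh1 went the other way, with gaps of 0.17 in narrow and 0.16 in wide pools, and Gdf3 had 0.11 in narrow and 0.13 in wide pools. Acvr2a had gaps of unlike sign, -0.042 in narrow and 0.13 in wide pools. What a replicate number stands for was not given in the sources used here, and its part in these values was not tested.

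**Figure D3:**
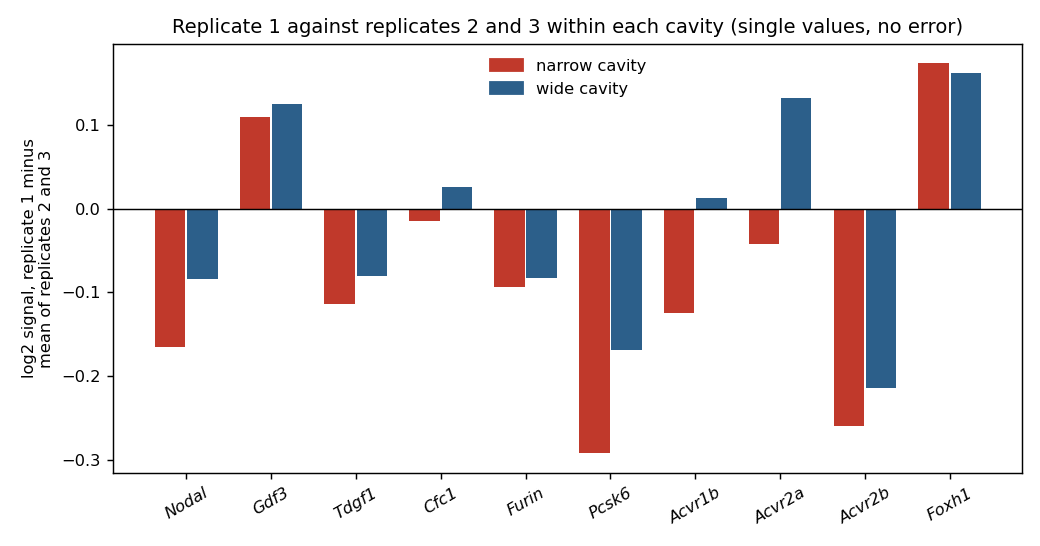
Log2 signal of replicate 1 minus the mean of replicates 2 and 3 (vertical axis), within the narrow pools (left bar of each pair, red) and the wide pools (right bar, blue), for each of the 10 genes. Bars are single values with no error. Pcsk6 at -0.29 in narrow and -0.17 in wide and Acvr2b at -0.26 in narrow and -0.21 in wide reach furthest down, and Foxh1 reaches furthest up.

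With the replicate number as a block in the limma fit, the differences stayed the same and their standard errors were smaller, 0.038 in place of 0.088 for Acvr2b and 0.045 in place of 0.090 for Pcsk6. Again 0 of 10 members had an unadjusted p below 0.05, beside 7.25% of all genes under this fit in place of 3.40%. With 10 members, 0 cannot be told from a share of 7.25%. The interval of Nodal was then -0.14 to 0.065 on the log2 scale and that of Acvr2b -0.093 to 0.093. Gdf3, lower in narrow in 3 of 3 same-numbered pairs (-0.082, -0.033 and -0.10), had an unadjusted limma p of 0.0908 with the block and 0.227 without it. Lower values in all 3 pairs were found for 13.9% of all genes. Cfc1 and Foxh1 were higher in narrow in 3 of 3 pairs, as were 14.8% of all genes.

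The genes whose log2 profile over the 6 pools was most like that of Nodal were Fam220a, Dst and Atm, out of 4135 candidates. Likeness was the mean gap between profiles centred on each gene's own mean, which was 0.0099 for Fam220a, 0.011 for Dst, a linker of the cytoskeleton, and 0.012 for Atm, a kinase of the DNA damage response. Dst had 9.50, 9.59 and 9.70 in narrow 1 to 3, against 9.59, 9.70 and 9.65 in wide 1 to 3, so that narrow 1 was the lowest pool here too. This is a description over 6 arrays in which the number 1 pools weigh heavily.

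Around these 10 genes, 52 others of the pathway were listed by role and 47 of them measured. By limma, 0 of the 47 passed over all genes. At an unadjusted p below 0.05 were 3 with higher and 3 with lower values in narrow pools, beside 1.68% of all genes higher and 1.72% lower, and the 47 had a median difference of 0.0099. With the replicate block these counts were 5 higher and 4 lower, where Smad3, Foxa2, Smad7 and Nanog (difference -0.16 ± 0.089, SE) came in and Inhba dropped out. These lists were drawn up with earlier results of these data known, and their most changed genes were already known, so the counts are no independent evidence.

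In the list of related ligands and receptors, 10 of 11 were measured, of which 1 was lower at an unadjusted p below 0.05. This was Inhba, the activin A subunit, with 6.57, 6.72 and 6.56 in narrow 1 to 3, against 6.75, 6.69 and 6.87 in wide 1 to 3 (difference -0.15 ± 0.063, SE, limma adjusted p = 1.00). Narrow 2 lay above wide 2, so the groups overlapped. Its unadjusted limma p was 0.0395, 0.0583 with the replicate block, and from 0.0136 to 0.149 over 13 alternatives, with 6 of them below 0.05. Inhbb, another activin subunit, had a difference of -0.059 ± 0.059, and the TGF-beta receptors Tgfbr1 and Tgfbr3 had 0.087 ± 0.055 and 0.066 ± 0.043. Acvr1c, a type I receptor also called ALK7, had 0.0099 ± 0.050. Of the other proprotein convertases 5 of 7 were measured and 0 reached an unadjusted p below 0.05. The lowest was Pcsk1, a convertase of hormone precursors, at -0.093 ± 0.052, followed by Pcsk4 at -0.053 ± 0.041. On the positive side were Mbtps1, the site-1 protease, at 0.035 ± 0.042 and Pcsk5 at 0.0038 ± 0.048.

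Among 8 Smad transducers and cofactors, all measured, 0 reached an unadjusted p below 0.05. Of their differences 7 were positive, beside 50.9% of those of all genes, but the median over the 8 was only 0.012. Smad3 had 10.42, 10.55 and 10.56 in narrow 1 to 3, against 10.33, 10.41 and 10.45 in wide 1 to 3, a difference of 0.11 ± 0.055 (limma unadjusted p = 0.0772). Every narrow pool was higher than the wide pool of its own number, but narrow 1 lay below wide 3. With the block its unadjusted limma p was 0.0184. Smad2, the main effector in the early epiblast, had a difference of 0.0051 ± 0.063, Trim33, a regulator of Smad complexes, 0.035 ± 0.053 and Crebbp, a coactivator, -0.030 ± 0.054.

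Of 14 inhibitors and feedback genes, all measured, 2 were higher in narrow at an unadjusted p below 0.05, 0 lower. These were Cer1, with 9.92, 9.48 and 9.80 in narrow 1 to 3, against 9.13, 8.81 and 9.15 in wide 1 to 3, and Lefty1, with 7.37, 7.51 and 7.43 in narrow 1 to 3, against 7.08, 7.20 and 7.09 in wide 1 to 3. For both, all narrow pools lay above all wide pools, with differences of 0.70 ± 0.13 and 0.31 ± 0.053 (SE), neither past the adjusted threshold (limma adjusted p = 1.00). With the replicate block the limma adjusted p was 0.0838 for Cer1, the smallest of all genes, and 0.630 for Lefty1, again not past it. Taken relative to Nodal on the same array, the log2 signal of Cer1 differed between cavities by 0.74 and that of Lefty1 by 0.35. An exact two-sided permutation test of these 2 values gave p = 0.1 each, also after adjustment over both, which is the smallest that 3 pools against 3 allow. Cer1 and Lefty1 were chosen here with their higher values in narrow known. This p was therefore close to fixed in advance and is no support for either gene. Lefty2, the remaining secreted inhibitor named above, went the other way, with a difference of -0.11 ± 0.095 (SE). Its groups overlapped, at dim mean signals of 6.02 in narrow and 6.14 in wide pools. The inhibitory Smad7, itself induced by the pathway, had -0.10 ± 0.052 and Skil, a repressor of Smads, -0.058 ± 0.045. With the block the unadjusted limma p of Smad7 was 0.0317, in place of 0.0937.

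For 12 target genes 10 were measured, with 1 higher and 2 lower in narrow at an unadjusted p below 0.05. Lhx1, a transcription factor of the anterior visceral endoderm, was higher by 0.15 ± 0.047 and Foxa2, an endoderm factor that needs strong Nodal signals, had 0.13 ± 0.062, with an unadjusted limma p of 0.0635 and, with the block, 0.0100. Mixl1, a mesendoderm factor, had 11.53, 11.56 and 11.53 in narrow 1 to 3, against 11.68, 11.70 and 11.68 in wide 1 to 3. All narrow pools were below all wide pools, by -0.14 ± 0.038 on average (limma adjusted p = 1.00). Bmp4, which the extraembryonic ectoderm makes under the influence of Nodal, had 11.68, 11.70 and 11.48 in narrow 1 to 3, against 11.87, 11.91 and 11.70 in wide 1 to 3, again with no overlap, and a difference of -0.21 ± 0.077. Eomes, a T-box factor of both extraembryonic ectoderm and visceral endoderm at this stage, had -0.00074 ± 0.041.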

How the data were processed

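RNA of 6 pools of mouse embryos was hybridized to 1-colour Affymetrix Mouse Gene 1.0 ST arrays, with biotin as label per the labels' protocols. The deposited values were log2 signals of 28853 features. The log2 scale was read from their range, and the software, summarization, normalization and build were not given in the sources used here. No scanner files were used, so signal over background could not be checked, and the number of arrays limits precision. Gene names came from the platform annotation, where 21789 features named 1 gene, 1621 several and 5443 none. The feature with the highest mean stood for each of 19938 genes, with no filter.

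Narrow minus wide was tested with limma 3.58.1 in R 4.3.3 (lmFit and eBayes, two-sided, no covariate, 95% intervals, Benjamini-Hochberg threshold 0.05), after the procedure had been tested on simulated data. The design text calls the samples biological replicates, and 0 pairs of arrays were identical. Deviations from the group means correlated at 0.516, 0.176 and 0.272 between same-numbered arrays 1, 2 and 3. All exceed 0.1, so a second fit took the titles' numbers as a block. The main fit, which gave the fold interval of each member, did not use these numbers. Narrow 2 and wide 3 correlated at 0.178, so the pairing is plain for number 1 only. The members and the lists were chosen with earlier results of these data known. Named were all members, up to 2 genes in each direction with the smallest p from each wider list, and the 3 genes closest to Nodal in profile with an SD of at least 0.8 times that of Nodal and a mean above the median, without predicted genes and those of olfactory or vomeronasal receptors and small RNAs. Acvr1c, Smad2, Eomes and Lefty2 were added for their roles after their values were seen. Alternatives were the block, each array left out, bright genes only, all features, averaged features, quantile normalization, median centring, an intensity trend with robust prior, and arrays numbered 2 and 3 only.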

Additional observations from a re-analysis of the deposited data

How the results depend on the processing

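Over 14 alternatives, the counts of members and of wider pathway genes past the adjusted threshold stayed at 0 in every limma fit, as did the count over all genes. The 678 genes at an unadjusted p below 0.05 became 1446 with the replicate block and 384 among genes above the median signal, where fewer genes were tested, and leaving out 1 array gave 497 to 990. Members at this level numbered 0 to 1 when 1 array was left out and 1 with arrays numbered 2 and 3 only, in each case Acvr2a. Of all genes, 4.18% reached this level without wide 1 and 4.58% with arrays numbered 2 and 3 only. Members whose groups did not overlap numbered 0 to 3 when 1 array was left out. The 3 were Acvr1b, Acvr2a and Gdf3 without narrow 1, and with arrays numbered 2 and 3 only they were again 3, the same genes. With fewer arrays more genes separate, and 20.4% and 33.3% of all genes did so there. With the replicate block 9 wider pathway genes in place of 6 had an unadjusted p below 0.05, and it changed no call at the adjusted threshold. The median difference of the members, 0.0023, ranged from -0.034 to 0.036 when 1 array was left out. Of 140 member differences, 128 kept their sign and 12, none called, did not. These were of Furin and Acvr2b (4 each), Foxh1 (2), Nodal (0.016 without narrow 1) and Pcsk6 (0.056 without narrow 1). Leaving out 1 array moved each of the 10 differences by over 1.5 times at least once. Causes were not tested. Signal over background could not be measured, which limits dim genes such as Lefty2, Inhba and Lefty1, all below the median signal over genes.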
